A study of Homo sapiens with 6 samples.

Results

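The H3K27ac landscape around TCF7 and LEF1 was followed in CCRF-CEM, a human leukemia cell line of T lymphoblasts. H3K27ac, acetylation of lysine 27 of histone H3, marks active promoters and enhancers. It was mapped by ChIP-seq, in which DNA bound to the marked histone is precipitated with an antibody and sequenced. Cells with a knockout of SLFN11, a Schlafen family protein that sensitises cells to replication stress, were set against wild-type parental cells. Each genotype was sampled after DMSO, the vehicle, and after 100 nM camptothecin, a topoisomerase 1 inhibitor, for 2 h and for 4 h. The 6 groups are thus knockout DMSO, knockout 2 h, knockout 4 h, parental DMSO, parental 2 h and parental 4 h, with 1 library each, so no difference here has a replicate check and no p-value between groups was computed. All groups share the same line, and the labels do not say whether the knockout is a single clone. The question set by the design is how marked chromatin changes after camptothecin with and without SLFN11.

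The members were the deposited peaks that overlap 2 spans on hg19. The TCF7 span runs on chromosome 5 from 133400001 to 133500000, around a gene on the plus strand from 133450 kb to 133484 kb. The LEF1 span runs on chromosome 4 from 108950001 to 109150000, around a gene on the minus strand from 108968 kb to 109091 kb. These gene positions are given in whole kb, and how they were rounded is not stated. Of 1440888 peaks in the 6 lists, 382 lay in the spans, 102 at TCF7 and 280 at LEF1. The loci were chosen by measured values of these same lists, in which the covered length of the window at the TCF7 start had stood out. The values below describe that choice and do not test it.

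TCF7 encodes TCF-1 and LEF1 encodes LEF-1, related transcription factors with an HMG box that binds DNA and a region that binds beta-catenin, the effector of Wnt signalling. Both are expressed in the T lineage from early thymocytes on, and in mice they act together in T cell commitment and in the choice between T helper and cytotoxic fates. Both genes have alternative starts that give long forms with the beta-catenin binding region and short forms without it. RUNX, ETS, GATA and E proteins are other factors that work at T cell regulatory sites.

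The sequences at the listed gene starts are shown because the gene start of each span, taken in whole kb, lay under or between marked domains in all 6 libraries. They come from RefSeq on GRCh38.p14, a build other than that of the peaks, and were not placed on hg19. Each runs from 250 bases before to 50 bases after the listed start, 5′ to 3′ along the gene. Capitals mark matches on either strand to 5 short words. The word for TCF/LEF proteins was CTTTGA. The word for RUNX proteins was TGTGGT. That for ETS proteins was CCGGAA. The E-box word was CAGGTG. The word for GATA proteins was AGATAA.
TCF7, first listed start (chr5:134115363-134115662, plus strand): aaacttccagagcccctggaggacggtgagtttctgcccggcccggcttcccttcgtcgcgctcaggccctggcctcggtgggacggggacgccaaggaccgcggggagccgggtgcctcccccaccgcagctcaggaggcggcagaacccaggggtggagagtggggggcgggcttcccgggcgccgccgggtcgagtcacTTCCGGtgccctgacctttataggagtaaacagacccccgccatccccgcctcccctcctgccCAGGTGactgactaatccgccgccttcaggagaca
TCF7, second listed start (chr5:134123368-134123667, plus strand): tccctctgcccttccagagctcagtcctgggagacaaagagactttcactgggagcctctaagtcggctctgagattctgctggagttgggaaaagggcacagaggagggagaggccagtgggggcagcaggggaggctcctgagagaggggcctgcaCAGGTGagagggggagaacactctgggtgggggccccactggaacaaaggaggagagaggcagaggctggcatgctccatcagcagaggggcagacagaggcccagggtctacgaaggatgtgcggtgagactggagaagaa
LEF1 (chr4:108166252-108166551, minus strand): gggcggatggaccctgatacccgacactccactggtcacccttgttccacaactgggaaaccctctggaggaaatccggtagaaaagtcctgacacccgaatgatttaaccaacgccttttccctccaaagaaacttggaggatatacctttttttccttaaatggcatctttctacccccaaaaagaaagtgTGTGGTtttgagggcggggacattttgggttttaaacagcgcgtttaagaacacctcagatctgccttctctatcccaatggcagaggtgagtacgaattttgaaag

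The first TCF7 sequence was rich in G and C (69.7%, with 25 CpG) and held an ETS match on the reverse strand and an E-box match. The second TCF7 sequence, 8005 bp further along the gene on GRCh38.p14, had 61% G and C but only 3 CpG, and held an E-box match. The LEF1 sequence had 47% G and C with 9 CpG and held a RUNX match. No match overlapped another. Among 35116 listed promoters of the same length, 17.2% held the ETS letters, 20.6% the E-box letters and 13.1% the RUNX letters, so single matches of these short words were common. The TCF/LEF letters, held by 12.9% of promoters, and the GATA letters, held by 10.3%, were not found in these 3 windows.

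The lists differed in length and depth. Knockout lists held 271785, 221753 and 410176 peaks in DMSO, at 2 h and at 4 h, and parental lists 174843, 180754 and 181577. Levels were therefore compared over an equal number of peaks, the 30000 that each list ranks first by p, called its top list here, and set beside all deposited peaks. Knockout 4 h stood apart, with a background pileup of 0.168 fragments per base against 0.506 to 0.715 in the other libraries and a median width in its top list of 710 bp against 938 to 1143 bp. Its smaller cover at both loci stands beside this low depth, whose part in it was not tested. Fold is the authors' ratio of pileup over local background and p is the authors' peak p, both given by MACS2 as means over a broad peak. Whether SLFN11 is lost in the knockout libraries was not checked here, as its locus was not used. Marker genes of T cells other than TCF7 and LEF1 were not placed on hg19.

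TCF7 carried a chain of 7 marked segments, from 35 kb before the gene start to 18.5 kb after it, and the same chain was found in both genotypes. Segments are the merged peaks of the 6 top lists. Of the 7, 6 held a deposited peak in all 6 libraries, and the other, 28.5 kb before the start, in 5 libraries. The share of segments over the genome with a deposited peak in every library was not computed. The chain consists of 3 segments upstream between 35 and 25.3 kb, a wide segment 11.5 kb upstream, a wide domain over the gene start, an adjoining wide domain inside the gene and a segment deeper in the gene.

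**Figure D1:**
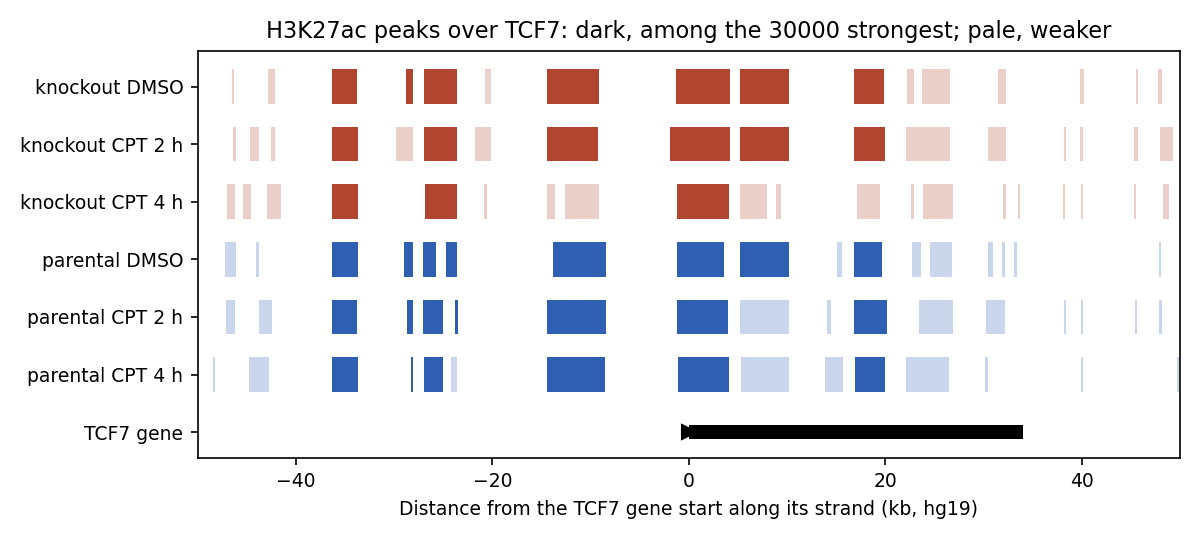
Deposited H3K27ac peaks over the TCF7 span in each library, by distance from the gene start in kb. Dark bars are peaks among the 30000 with the smallest p of their library, pale bars are weaker peaks, and the black bar is the gene. The domain from about 5.2 to 10.2 kb is dark in knockout DMSO, knockout 2 h and parental DMSO, and pale but of the same extent in parental 2 h and 4 h.

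The element 35 kb upstream was the steadiest of the TCF7 span. On chromosome 5 from 133413659 to 133416290, its peak was 2559, 2631 and 2593 bp wide in knockout DMSO, 2 h and 4 h, and 2581, 2571 and 2589 bp wide in parental DMSO, 2 h and 4 h. Its left edge moved by 24 bp and its right edge by 61 bp over all 6 libraries. The fold was 2.70, 2.58 and 2.82 in knockout cells and 2.72, 2.87 and 2.78 in parental cells, in the same order. It was the strongest TCF7 peak by p in every knockout library, ranking 8345, 8224 and 12115 in lists of unequal length.

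The element 25.3 kb upstream differed in shape between the genotypes. On chromosome 5 from 133422952 to 133426455, knockout DMSO, 2 h and 4 h each had 1 unbroken peak of 3386, 3443 and 3241 bp, with folds of 2.26, 2.37 and 2.82. Parental DMSO, 2 h and 4 h had 2 peaks each in this place, the stronger of them 1269, 1983 and 1982 bp wide with folds of 3.14, 3.30 and 3.06. In parental cells that stronger peak was the top TCF7 peak by p, ranking 7376, 7949 and 8625. These are 3 treatments of each genotype and not replicates, and the share of other elements whose widths separate in this way was not computed. A mean over a longer peak takes in weaker positions, so the lower fold in knockout cells and the greater width are not separate measurements. By rank over a fixed set of regions, described below, this element stood at 11755, 9779 and 9670 in knockout cells and at 7139, 7673 and 8331 in parental cells. Of all 18835 fixed regions, 9.88% had their 3 knockout ranks all weaker than their 3 parental ranks, and 8.65% all stronger. Ranked by fold, the genotypes overlapped at this element, with 18366, 18092 and 14233 in knockout cells and 15981, 15695 and 16246 in parental cells. By fold, 5.9% of all regions had every knockout rank weaker than every parental rank, and 5.9% every one stronger.

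The small element between them, 28.5 kb upstream, was variable. Its peak covered 736 bp in knockout DMSO and none of the top list at knockout 2 h and 4 h, against 897, 634 and 215 bp in parental DMSO, 2 h and 4 h. At knockout 2 h a weaker peak with a fold of 1.51 and a rank of 42761 lay there, and knockout 4 h had no peak in its list at this place. Where a peak was listed, its −log10 p was lower after treatment than in the DMSO library of its genotype, with 2.74 at knockout 2 h against 7.38 in knockout DMSO, and 4.08 at both parental times against 6.17 in parental DMSO.

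The segment 11.5 kb upstream, on chromosome 5 from 133435505 to 133441558, was among the widest peaks anywhere in these lists. It spanned 5329 and 5187 bp in knockout DMSO and 2 h, and 5435, 6044 and 5933 bp in parental DMSO, 2 h and 4 h. In those 5 libraries between 10 and 54 of the 30000 peaks of the list were wider. The fold was low throughout, at 1.72 and 1.70 in the knockout libraries and 1.86, 1.91 and 1.85 in the parental libraries. Knockout 4 h had 2 weaker peaks there that covered 4348 bp, the stronger with a fold of 1.97 and a rank of 74145.

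The gene start lay under a single wide domain in all 6 libraries. The peak spanned 5479, 6154 and 5211 bp in knockout DMSO, 2 h and 4 h, and 4851, 5193 and 5138 bp in parental DMSO, 2 h and 4 h. Its fold was 1.59, 1.59 and 1.91 in knockout cells and 1.67, 1.76 and 1.81 in parental cells. At most 68 peaks of any top list were wider and at most 0.2% had a lower fold. The TCF7 start thus stood out by width, which goes with the cover it was chosen for, and not by a high fold. This fold is a mean over a long peak against a local background, so it does not give the height of the mark. The −log10 p of this domain was 7.23, 8.21 and 5.10 in knockout cells and 7.88, 7.86 and 8.47 in parental cells, and it remained in the top list of knockout 4 h when its neighbours on both sides did not.

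A second domain began between 1029 and 1622 bp past the end of the first. On hg19 it extended from about 5.2 to 10.2 kb past the gene start in 5 libraries, on chromosome 5 from 133455224 to 133460250. It was 4932 and 5027 bp wide in knockout DMSO and 2 h, and 4925, 4987 and 4964 bp wide in parental DMSO, 2 h and 4 h. The fold was 1.40 and 1.42 in knockout DMSO and 2 h, and 1.42, 1.42 and 1.41 in parental DMSO, 2 h and 4 h. Neither width nor fold thus set the treated parental libraries apart. In knockout 4 h the place held 2 peaks covering 3244 bp, the stronger with a fold of 1.59.

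The covered length at the TCF7 start turned on this second domain. With the 30000 strongest peaks, cover of the 10 kb window from 133450001 to 133460000 came to 8971, 8967 and 4045 bp in knockout DMSO, 2 h and 4 h, and to 8378, 4033 and 4042 bp in parental DMSO, 2 h and 4 h. With all deposited peaks, cover of the same window was 8971, 8967 and 7289 bp in knockout cells and 8378, 8786 and 8775 bp in parental cells. The order of treated and untreated parental cells thus turned round. In both DMSO libraries no other window of the genome was covered as fully in the top lists, and at knockout 2 h 1 window was covered more.

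The second domain lay close to the end of each top list. The −log10 p of the second domain was 4.00, 4.62 and 2.46 in knockout DMSO, 2 h and 4 h, against 3.39, 3.35 and 3.20 for the weakest of the 30000 peaks of those lists. In parental DMSO, 2 h and 4 h it was 3.68, 2.97 and 2.95, against 3.21, 3.43 and 3.20 at the end of the list. The domain passed by 0.47 in parental DMSO and lay below it at parental 2 h and 4 h, with differences of −0.46 and −0.25. Its −log10 p at both parental times was below that of parental DMSO and of knockout DMSO and 2 h. The background pileup was 0.506 and 0.570 fragments per base at parental 2 h and 4 h, against 0.603 in parental DMSO and 0.699 and 0.715 in knockout DMSO and 2 h. The −log10 p followed the order of these 5 values except between parental 2 h and 4 h, and the part of depth in it was not tested.

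**Figure D2:**
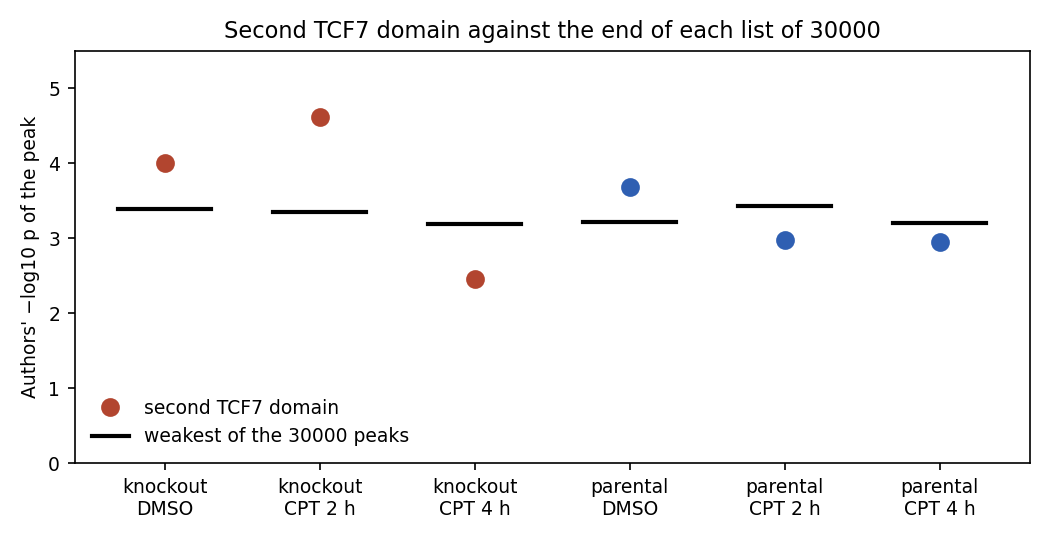
Authors' −log10 p of the second TCF7 domain (points) and of the weakest of the 30000 strongest peaks (black lines) in each library. Points lie above the line in knockout DMSO, knockout 2 h and parental DMSO, and below it in knockout 4 h, parental 2 h and parental 4 h.

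Deeper in the gene, 18.5 kb past the start on chromosome 5 from 133466792 to 133470144, a peak of 3089 and 3190 bp stood in knockout DMSO and 2 h, and of 2828, 3314 and 3082 bp in parental DMSO, 2 h and 4 h. Its fold was 1.8 and 1.79 in those knockout libraries and 1.82, 1.8 and 1.74 in the parental ones. Knockout 4 h had a peak of 2414 bp with a fold of 2.22 and a rank of 51807, outside the top list.

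LEF1 was marked in another way, by a pair of strong peaks about its start and by scattered narrower peaks along a long gene and beyond its end. The top lists held 14, 14 and 7 LEF1 peaks in knockout DMSO, 2 h and 4 h, and 12, 12 and 15 in parental DMSO, 2 h and 4 h. They merged into 22 segments, of which 5 were marked in all 6 top lists and 9 in a single one. With all deposited peaks, 18 of the 22 held a peak in every library. How often segments elsewhere in the genome are shared by as many libraries was not computed. These counts are therefore not shown to be particular to LEF1.

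**Figure D3:**
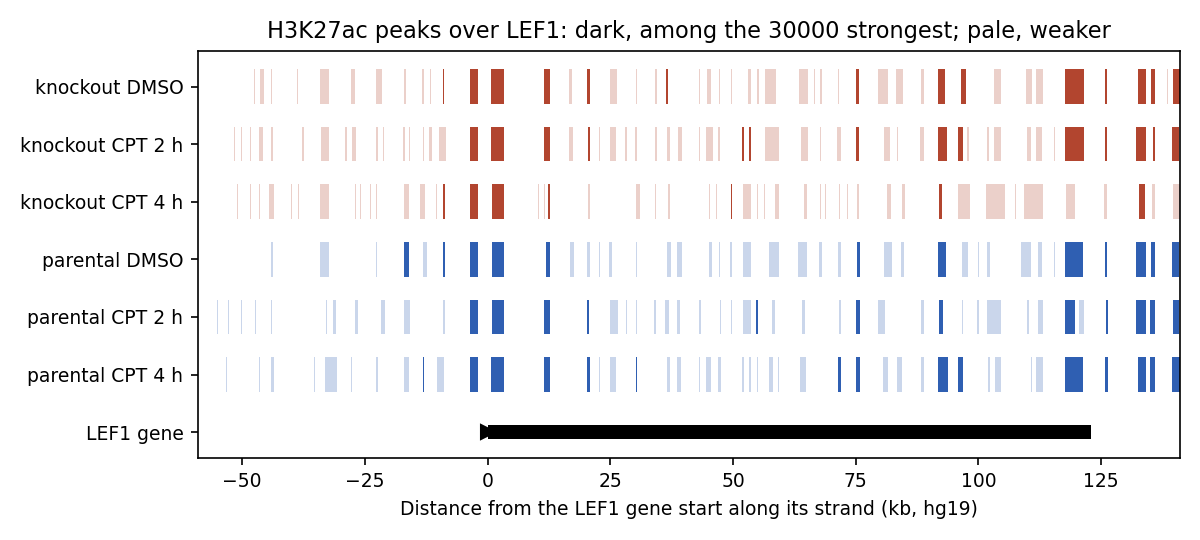
Deposited H3K27ac peaks over the LEF1 span in each library, by distance from the gene start in kb along the minus strand. Dark bars are peaks among the 30000 with the smallest p of their library, pale bars are weaker peaks, and the black bar is the gene. The pair beside the start is dark in all 6 libraries, and the group of peaks around the end of the gene is mostly pale in knockout 4 h.

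The pair beside the start was in every top list, with like widths and folds in all 6 libraries. The upstream peak, centred 2.8 kb before the gene start on chromosome 4 from 109092989 to 109094615, was 1621, 1602 and 1490 bp wide in knockout DMSO, 2 h and 4 h, and 1618, 1627 and 1593 bp wide in parental DMSO, 2 h and 4 h. Its fold was 2.91, 2.93 and 3.07 in knockout cells and 3.03, 3.09 and 3.06 in parental cells. It was the strongest LEF1 peak by p in every library. In RefSeq, LEF1-AS1, a long noncoding RNA gene on the plus strand, neighbours LEF1 on this side. Its start was not placed on hg19, and its own transcription cannot be told from peaks.

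The other peak of the pair, centred 2.0 kb inside the gene on chromosome 4 from 109087618 to 109090341, was 2704, 2721 and 2450 bp wide in knockout cells and 2549, 2548 and 2571 bp wide in parental cells, from DMSO to 4 h. The fold was 2.53, 2.58 and 2.91 in knockout cells and 2.67, 2.74 and 2.79 in parental cells. The gap between the pair was 2648, 2656 and 2845 bp in knockout cells and 2800, 2793 and 2773 bp in parental cells. The gene start taken as 109091 kb fell in this gap. The peak inside the gene ended between 109090166 and 109090341 over the libraries. A start rounded to whole kb may therefore also lie under that peak. Outside knockout 4 h, the edges of the upstream peak agreed to within 10 and 24 bp over the 5 libraries. Both peaks had a strong p beside a modest fold, as the −log10 p of the upstream peak was 25.0, 28.5 and 10.3 in knockout cells and 27, 23 and 23.1 in parental cells.

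A peak 12.0 kb inside the gene had the highest fold of both spans among the top list peaks of each library except knockout 2 h, where the elements at 75.5 and 126.2 kb had 6.35 and 6.04. On chromosome 4 from 109078315 to 109079589, the fold was 6.63, 5.69 and 6.29 in knockout DMSO, 2 h and 4 h, and 9.07, 5.97 and 6.14 in parental DMSO, 2 h and 4 h. The parental DMSO value was above the other 5, and its peak was narrower than in all but knockout 4 h, 746 bp against 1206 and 1250 bp in knockout DMSO and 2 h and 1245 and 1241 bp at parental 2 h and 4 h. Knockout 4 h had a peak of 268 bp. A mean over a narrow peak and a mean over a wider one do not cover the same positions, so these folds are not a like measure of the element.

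Within the gene body, the element 92.8 kb past the start, on chromosome 4 from 108997159 to 108999262, also varied in width and fold. At knockout DMSO, 2 h and 4 h it was 1316, 1667 and 575 bp wide with folds of 4.62, 3.87 and 5.91. In parental DMSO, 2 h and 4 h it was 1685, 761 and 2044 bp wide with folds of 4.13, 5.81 and 3.92. The 3 narrower peaks, those of knockout DMSO, knockout 4 h and parental 2 h, had the 3 higher folds. The element 75.5 kb past the start was 600 to 774 bp wide in the 5 deeper libraries. Its fold there was 5.22 and 6.35 in knockout DMSO and 2 h, and 5.57, 4.11 and 4.78 in parental DMSO, 2 h and 4 h. In knockout 4 h its fold was 1.92, with rank 93583.

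A wide LEF1 peak lay in the last part of the gene, 119.5 kb past the start on chromosome 4 from 108969490 to 108973433. It spanned 3928 and 3919 bp in knockout DMSO and 2 h, and 3545, 1996 and 3619 bp in parental DMSO, 2 h and 4 h. It was the widest top list peak of LEF1 in the libraries other than parental 2 h and knockout 4 h. At parental 2 h a weaker second peak brought the cover to 2951 bp with all deposited peaks. Knockout 4 h had a peak of 1698 bp with a fold of 2.83, outside its top list. A low peak 96.7 kb past the start was in the top lists of knockout DMSO and 2 h and parental 4 h, with 930, 977 and 1063 bp and folds of 2.56, 2.42 and 2.42. It was deposited at a weaker p in the other 3 libraries.

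Beyond the end of the gene, 4 elements between 126.2 and 140.3 kb past the start were marked. The one at 126.2 kb was narrow, 382 and 377 bp in knockout DMSO and 2 h and 324, 430 and 649 bp in parental DMSO, 2 h and 4 h. Its fold was 4.93 and 6.04 in those knockout libraries and 4.76, 5.43 and 4.07 in the parental ones, highest at 2 h in both genotypes. Knockout 4 h had a weaker peak with a fold of 1.98 and rank 113125. The element at 135.5 kb was also highest at 2 h in both genotypes, with a fold of 3.39 at knockout 2 h against 2.49 in knockout DMSO, and 3.29 at parental 2 h against 2.34 in parental DMSO. At 4 h its fold was 2.61 in knockout and 2.15 in parental cells. Its width was 803, 331 and 522 bp in knockout DMSO, 2 h and 4 h, and 835, 924 and 870 bp in parental DMSO, 2 h and 4 h, so the knockout fold at 2 h is a mean over a shorter peak.

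The element at 133.0 kb was in all 6 top lists, with folds of 3.09, 2.98 and 3.11 in knockout DMSO, 2 h and 4 h and 2.99, 3.14 and 3.40 in parental DMSO, 2 h and 4 h. The element at 140.3 kb lay across or just inside the edge of the span, beginning at 108949984 in knockout DMSO and 4 h. Its fold was 2.59, 3.20 and 2.28 in knockout cells and 3.28, 3.51 and 2.97 in parental cells. The nearest top list peaks outside the spans in parental DMSO were 9042 bp before and 11856 bp after the TCF7 span, with folds of 2.81 and 6.08, and 24537 and 63829 bp from the edges of the LEF1 span, with folds of 3.36 and 3.31.

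Upstream of LEF1, a low peak centred 16.5 kb before the start was in the top list of parental DMSO alone, with 1101 bp and a fold of 2.98. At parental 2 h the same place had a fold of 3.06 and rank 31178, just outside the top list. The fold was 1.93, 2.44 and 2.34 in knockout DMSO, 2 h and 4 h, and 2.59 at parental 4 h. The other 10 LEF1 segments were 204 to 585 bp wide, and 8 of them were in 1 top list only. The best of them stood at place 15442 of the 30000.

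The loci differed in how their cover was made up. TCF7 peaks of the top lists had a median width of 3386, 4235 and 3241 bp in knockout DMSO, 2 h and 4 h, and 2704, 2571 and 2836 bp in parental DMSO, 2 h and 4 h. LEF1 peaks of the top lists had medians of 1068, 1114 and 575 bp in knockout cells and 1262, 1085 and 1063 bp in parental cells. The whole top lists had medians of 1103, 1143 and 710 bp in knockout cells and 1101, 938 and 1021 bp in parental cells. TCF7 peaks were thus wider than those of LEF1 and of the whole list in each of the 6 libraries, with a lower median fold, 1.8, 1.75 and 2.82 in knockout cells and 1.84, 2.07 and 1.94 in parental cells. LEF1 peaks had a median fold of 3.10, 3.28 and 3.11 in knockout cells and 3.19, 3.75 and 3.34 in parental cells, against 3.85, 3.88 and 3.44 and 3.78, 3.90 and 3.76 over the whole top lists.

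The covered share of each span followed. Peaks of the top lists covered 25.5%, 25.6% and 11.0% of the TCF7 span in knockout DMSO, 2 h and 4 h, and 23.9%, 20.0% and 18.9% in parental DMSO, 2 h and 4 h. They covered 8.81%, 9.11% and 3.40% of the LEF1 span in knockout cells and 8.50%, 7.26% and 9.54% in parental cells. All deposited peaks covered 32339, 39116 and 29400 bp of the TCF7 span in knockout cells and 30207, 33948 and 33700 bp in parental cells. They covered 42557, 46105 and 38360 bp of the LEF1 span in knockout cells and 39359, 35342 and 39861 bp in parental cells. The drop at knockout 4 h in the top lists was thus much smaller with all deposited peaks. In that list, however, 59.7% of the peaks shared a single pair of fold and p, solved as a pileup of 1 fragment. The most frequent pair of the other lists held 14.0% to 17.5% of their peaks and was solved as 2 fragments. All deposited peaks therefore do not reach the same floor in each library.

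**Figure D4:**
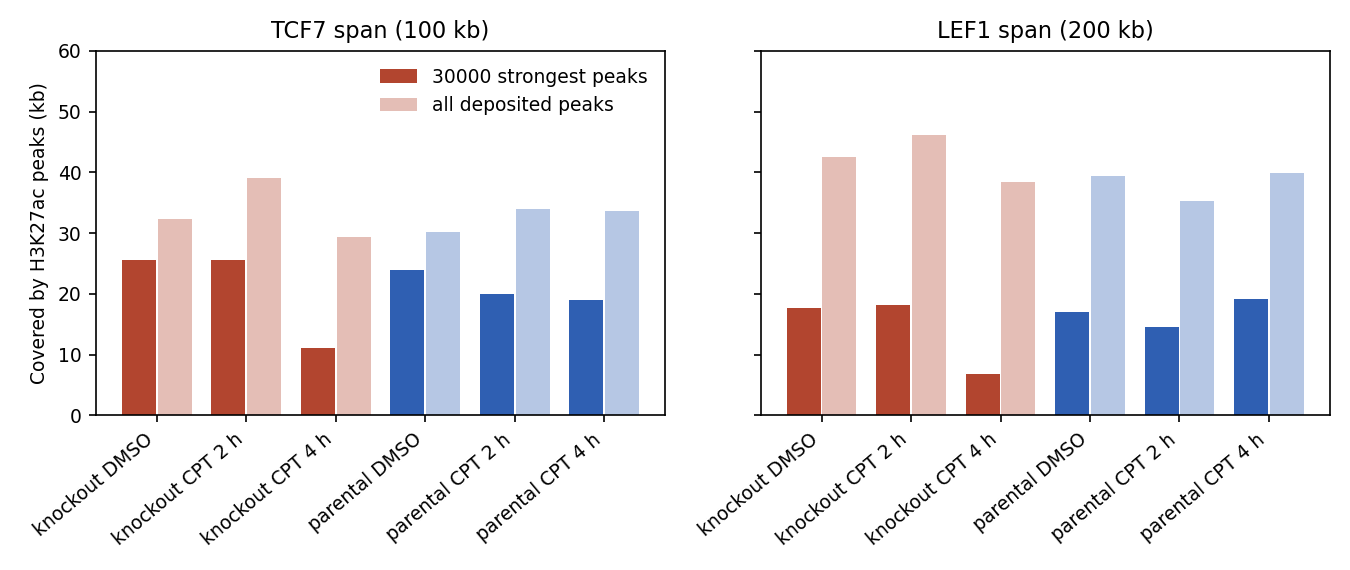
Length covered by H3K27ac peaks in kb, in the TCF7 span (left) and the LEF1 span (right) of each library. Solid bars are the 30000 strongest peaks and pale bars all deposited peaks. Knockout 4 h has the lowest solid bar at both loci, and its pale bar lies much closer to those of the other libraries.

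After 2 h of camptothecin in knockout cells, no window of either span differed from DMSO by 1000 bp or more. Over the genome, 56592 windows held cover in the top list of some library, and these are called all windows here. Of them, 3.46% were covered by at least that much more and 2.61% by that much less. The counts for the spans take every window of a span, also those without cover in any top list. Counts in the spans and shares of all windows thus have unlike denominators. TCF7 cover was 25632 bp at knockout 2 h, against 25510 bp in knockout DMSO. LEF1 cover was 18218 bp at knockout 2 h, against 17621 bp in knockout DMSO. The differences were 122 and 597 bp.

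After 4 h in knockout cells, 3 of 10 TCF7 windows and 4 of 20 LEF1 windows were covered by at least 1000 bp less, and none by that much more, where 10.8% of all windows were covered less and 1.64% more. TCF7 cover was 11045 bp at knockout 4 h, against 25510 bp in knockout DMSO. LEF1 cover was 6796 bp at knockout 4 h, against 17621 bp in knockout DMSO. The peaks kept in the top list were the start domain and the elements 35 and 25.3 kb upstream at TCF7, and at LEF1 the pair at the start, the elements at 12.0, 92.8 and 133.0 kb and 2 narrow segments. This library had 0.168 fragments per base of background, against 0.699 in knockout DMSO.

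After 2 h in parental cells, 1 TCF7 window and 2 LEF1 windows were covered by at least 1000 bp less, and none by that much more, where 5.29% of all windows were covered less and 1.92% more. TCF7 cover was 20014 bp at parental 2 h, against 23875 bp in parental DMSO, a difference of −3861 bp, where the second domain alone held 4925 bp in parental DMSO. LEF1 cover was 14514 bp at parental 2 h, against 16990 bp in parental DMSO. The LEF1 windows concerned were those of the peak at 119.5 kb and of the low upstream peaks from 109100001. With all deposited peaks the TCF7 difference had the opposite sign, 3741 bp.

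After 4 h in parental cells, 2 TCF7 windows were covered less and 2 LEF1 windows more, where 4.1% of all windows were covered less and 2.2% more. TCF7 cover was 18939 bp at parental 4 h, against 23875 bp in parental DMSO. LEF1 cover was 19080 bp at parental 4 h, against 16990 bp in parental DMSO. The TCF7 windows were that of the second domain and that of the elements 28.5 and 25.3 kb upstream, with 2197 bp at 4 h against 3255 bp in DMSO. The LEF1 windows held the elements at 92.8 to 96.7 kb, with 3107 bp at 4 h against 1685 bp in DMSO, and at 12.0 to 20.5 kb, with 1824 bp against 746 bp. All deposited peaks gave a TCF7 difference of the opposite sign, 3493 bp.

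Knockout DMSO shares its library with both knockout treatment comparisons, and parental DMSO with both parental ones. Without treatment, no TCF7 window and 1 LEF1 window differed between the genotypes by 1000 bp, where 3.44% of all windows were covered more in knockout DMSO and 3.33% less. TCF7 cover was 25510 bp in knockout DMSO and 23875 bp in parental DMSO. LEF1 cover was 17621 bp in knockout DMSO and 16990 bp in parental DMSO. The LEF1 window was that of the low upstream peaks, with 39 bp in knockout DMSO and 1134 bp in parental DMSO.

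At 2 h, knockout cells had 1 TCF7 window and 2 LEF1 windows covered by at least 1000 bp more than parental cells, and none by that much less, where 6.36% of all windows were covered more and 2.06% less. TCF7 cover was 25632 bp at knockout 2 h and 20014 bp at parental 2 h, and LEF1 cover 18218 and 14514 bp. At 4 h, knockout cells had 1 TCF7 window covered more, and 3 TCF7 and 5 LEF1 windows covered less, where 1.83% and 8.84% of all windows were so. TCF7 cover was 11045 bp at knockout 4 h and 18939 bp at parental 4 h, and LEF1 cover 6796 and 19080 bp. The single window covered more at knockout 4 h was that of the element 25.3 kb upstream of TCF7, with 3241 bp in knockout and 2197 bp in parental cells.

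Ranks over a fixed set of regions compared the same regions in every library. They were taken over all deposited peaks, so they still depend on which peaks a list holds. A region without a peak took the lowest, shared rank, as the TCF7 region at −28.4 kb did in knockout 4 h, with 18596. The set was made by merging the first 15000 peaks by p of every library but knockout 4 h, 5 in all, and held 18835 regions, 4 at TCF7 and 10 at LEF1, each ranked in a library by its best −log10 p. The second TCF7 domain was too weak to enter it. Of the 14 regions, 8 entered through all 5 libraries and 6 through fewer, so a high rank in the libraries that brought those 6 in is partly set by the choice. The LEF1 upstream peak ranked 3419, 3102 and 2594 in knockout DMSO, 2 h and 4 h, and 2672, 3432 and 4307 in parental DMSO, 2 h and 4 h. The TCF7 start domain ranked 14357, 13831 and 9755 in knockout cells and 12896, 11820 and 11568 in parental cells, with a smaller number, and so a higher standing, in every treated library than in its DMSO library. None of these TCF7 shifts passed 3000 places apart from that of knockout 4 h.

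**Figure D5:**
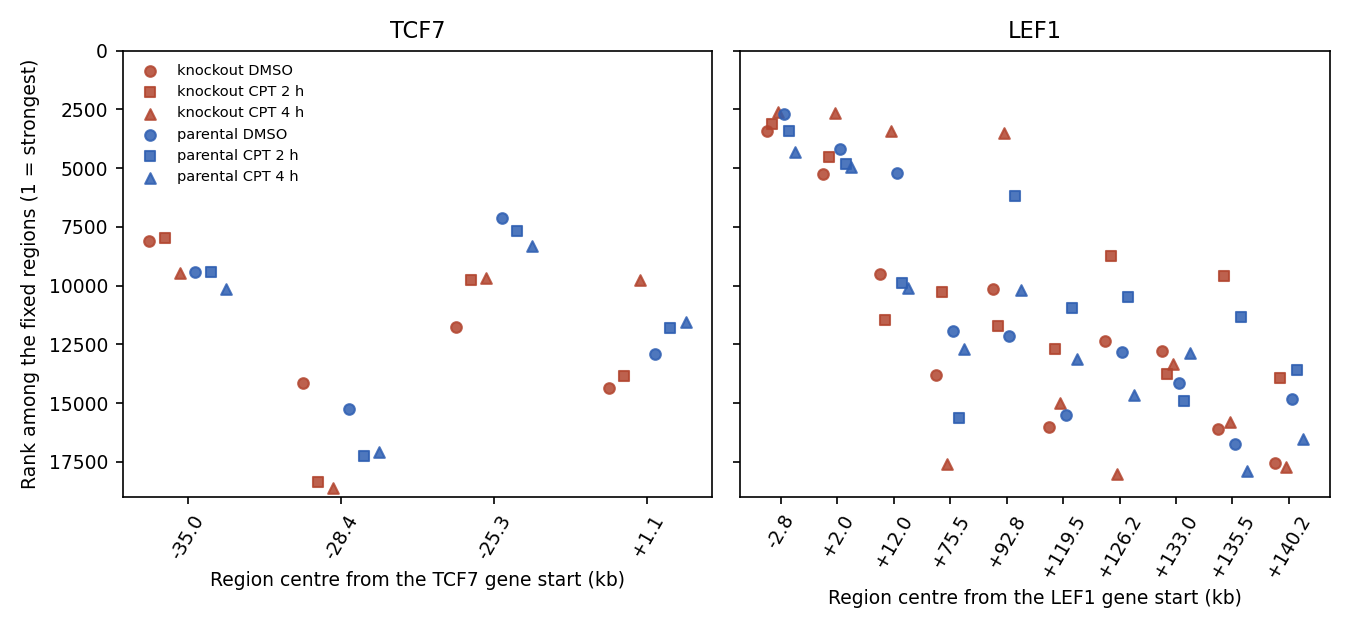
Rank of each fixed region of the TCF7 (left) and LEF1 (right) spans among 18835 regions, with rank 1 at the top, by distance of its centre from the gene start in kb. Circles, squares and triangles are DMSO, 2 h and 4 h, red for knockout and blue for parental. The pair beside the LEF1 start lies near the top in all 6 libraries, and the TCF7 element at −25.3 kb lies lower in knockout than in parental cells, as 9.88% of all regions do in every library.

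By this measure, knockout 2 h against knockout DMSO had 5 LEF1 regions ranked stronger by more than 3000 places and 1 TCF7 region ranked weaker, where 4.5% and 4.68% of all regions moved so. The 5 were the elements at 75.5, 119.5, 126.2, 135.5 and 140.2 kb, and all but the first lie in the last part of the gene or beyond it. The elements at 119.5, 135.5 and 140.2 kb entered the set through knockout 2 h and not through knockout DMSO, and the TCF7 region, at −28.4 kb, through knockout DMSO alone. For these the direction was favoured by the choice of regions, which leaves the elements at 75.5 and 126.2 kb. Parental 2 h against parental DMSO had 3 LEF1 regions ranked stronger and 2 weaker, where 8.79% and 8.1% of all regions moved so. Those ranked stronger were the elements at 92.8, 119.5 and 135.5 kb, of which those at 119.5 and 135.5 kb entered through parental 2 h and not through parental DMSO. Those ranked weaker were the elements at 12.0 and 75.5 kb, the latter entering through parental DMSO and not through parental 2 h. The element at 75.5 kb ranked 15625 at parental 2 h against 11944 in parental DMSO. In knockout cells it moved the other way, to 10284 at 2 h from 13825 in DMSO.

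The element at 135.5 kb ranked 9585 at knockout 2 h against 16105 in knockout DMSO, and 11328 at parental 2 h against 16747 in parental DMSO. At 4 h it ranked 15795 in knockout cells and 17894 in parental cells. This element entered the set through knockout 2 h and parental 2 h alone. Its higher standing at 2 h, in both genotypes, was therefore favoured by the choice of regions. Ranked by fold, it stood at 15061 at knockout 2 h against 17953 in knockout DMSO. In parental cells its rank by fold was 15737 at 2 h against 18136 in DMSO. Neither shift by fold was large enough to be called. The element at 119.5 kb ranked 12719 at knockout 2 h against 16000 in knockout DMSO, and 10949 at parental 2 h against 15521 in parental DMSO. At 4 h it ranked 14996 in knockout and 13126 in parental cells. At parental 2 h its peak was 1996 bp wide, against 3545 bp in parental DMSO, and its window was called as covered less, so rank and cover differ in direction there. These are 2 of 10 LEF1 regions picked for their shift, in single libraries, so whether the shift at 2 h would recur is not known.

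Of the other comparisons, parental 4 h against parental DMSO had 1 LEF1 region ranked weaker and none stronger, where 7.45% and 7.13% of regions moved so. That region was the high fold element at 12.0 kb, with rank 10101 at parental 4 h against 5218 in parental DMSO. It ranked 9524, 11455 and 3406 in knockout DMSO, 2 h and 4 h, and 9869 at parental 2 h. Knockout DMSO against parental DMSO had 1 TCF7 and 1 LEF1 region ranked weaker, the elements at −25.3 kb and at 12.0 kb, where 7.35% of regions were weaker and 7.63% stronger.

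At 4 h the knockout library ranked 1 TCF7 region and 2 LEF1 regions stronger and 1 TCF7 and 2 LEF1 regions weaker than its DMSO library, where 15.2% and 16.1% of regions moved so. Knockout 2 h against parental 2 h had 1 LEF1 region ranked stronger and 1 weaker, where 9.99% and 10.1% of regions moved so. Knockout 4 h against parental 4 h had 2 LEF1 regions ranked stronger and 2 weaker, where 16.3% and 17.9% did. Knockout 4 h took no part in building the set and had the lowest background pileup. The part of either in its rank shifts was not tested.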

How the data were processed

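H3K27ac ChIP-seq peaks of 6 CCRF-CEM libraries, 1 per group, were analysed on hg19. MACS2 2.1.2 appears in the submitters' processing notes, together with BWA 0.7.17, Trimmomatic 0.39, Trim Galore 0.6.2, Picard 2.9.2 and SAMtools 1.8. Settings and the control behind the peak calls are not stated there. The authors deposited 1 broad peak list per library, giving a fold (a ratio of pileup over local background), a −log10 p, a −log10 q and a score per peak. The deposited score equals the −log10 q multiplied by 10 and was used only to check that column.

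Peaks on chromosomes 1 to 22 and X were ordered by −log10 p, and the first 30000 of each list formed its top list. Ranks printed for a peak are places in its whole list. Cover was counted per span and per 10 kb window, with a call at 1000 bp, and ranks over fixed regions were called above 3000 places. Segments were named when they held a peak among the first 15000 of a list or differed by 1000 bp in a comparison. The narrow LEF1 segment at 20.5 kb and the elements singled out by rank were chosen after their values were seen. Depth was not in the lists, and background pileup was solved from the most frequent fold and p of each list. Alternatives were all deposited peaks, 15000 peaks, a −log10 q of at least 5, windows shifted by 5 kb, ranking by fold and at least 50% of a peak inside the span. The window and rank steps were tested on simulated lists. Spans, members and lists were chosen with earlier results of these data known. Python 3.11.15, pandas 2.3.3, NumPy 2.4.6, SciPy 1.17.1 and Matplotlib 3.10.9 were used. An hg19 annotation and other genes of the Wnt pathway were not used here.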

Additional observations from a re-analysis of the deposited data

Results flagged for a closer look

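In the top lists, the change in covered length after 2 h of camptothecin had opposite signs in the genotypes at both loci. For TCF7 it was 122 bp in knockout and −3861 bp in parental cells. For LEF1 it was 597 bp in knockout and −2476 bp in parental cells. No window of either span was called at 2 h in knockout cells. At 4 h the LEF1 changes were −10825 bp in knockout and 2090 bp in parental cells. Each is a difference of single libraries, and the difference between genotypes was not tested. The TCF7 changes at 2 h had the same sign in both genotypes under every other choice of peaks. In knockout and parental cells they were 6777 and 3741 bp with all deposited peaks and 68 and 1321 bp with 15000 peaks. With a −log10 q of at least 5 they were 5547 and 1046 bp. The opposite signs at TCF7 thus held for the top lists only. For LEF1 at 2 h, the changes were 3548 and −4017 bp, 6576 and −201 bp, and 6576 and 1933 bp, in the same order. The LEF1 changes at 4 h kept opposite signs under every choice of peaks. Knockout 4 h had the lowest background pileup, whose part in its change was not tested.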

How the results depend on the processing

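No paired analysis was possible because each group has 1 library. Differences in covered bp are given in the order knockout 2 h minus DMSO, knockout 4 h minus DMSO, parental 2 h minus DMSO, parental 4 h minus DMSO, and knockout minus parental in DMSO, at 2 h and at 4 h. With the 30000 strongest peaks, the TCF7 differences were 122, −14465, −3861, −4936, 1635, 5618 and −7894 bp, and the LEF1 differences 597, −10825, −2476, 2090, 631, 3704 and −12284 bp. With all deposited peaks, the TCF7 differences were 6777, −2939, 3741, 3493, 2132, 5168 and −4300 bp, and the LEF1 differences 3548, −4197, −4017, 502, 3198, 10763 and −1501 bp. With 15000 peaks, the TCF7 differences were 68, −1115, 1321, 1008, 3459, 2206 and 1336 bp, and the LEF1 differences 6576, −4631, −201, 2889, −1688, 5089 and −9208 bp. With a −log10 q of at least 5, the TCF7 differences were 5547, −6681, 1046, 1008, −2020, 2481 and −9709 bp, and the LEF1 differences 6576, −4631, 1933, 590, 1816, 6459 and −3405 bp. Of 14 differences under 3 alternatives, 10 of 42 values changed sign, among them the parental TCF7 differences at both times under all 3. The second domain, with 4925 bp, is in the parental DMSO list of 30000 and in neither treated one, and in no list of 15000. The LEF1 difference between the DMSO libraries, 631 bp, also changed sign with 15000 peaks. The cause of the sign changes was not tested. Shifting windows by 5 kb kept the number of called windows within 1.5 times in all 7 comparisons. Ranking by fold gave 3 called regions for parental 4 h against DMSO, 3 for knockout 2 h against DMSO and 0 for knockout against parental in DMSO, in place of 1, 6 and 2. Requiring 50% of a peak inside the span changed no peak count. Knockout 4 h had the lowest background pileup, and peaks missing from its top list are not shown to be absent marks.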
